A study of Macaca fascicularis with 7 samples.

Results

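Cynomolgus monkey (Macaca fascicularis) oocytes that had reached metaphase II (MII) in culture were compared, gene by gene, with MII oocytes collected after maturation in vivo. The members are the libraries that the labels call IVM-MII (in vitro matured, written IVM MII here, 3 libraries) and IVO-MII (in vivo matured, IVO MII, 2 libraries), so 5 of the 7 libraries of the series, and 14668 of 28161 gene rows had enough counts to be tested. The remaining 2 libraries came from immature germinal vesicle (GV) oocytes and entered only an alternative fit of all 7 libraries. The design asks how the RNA of an oocyte matured in a dish differs from that of one matured in the ovary.

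All oocytes were wild type. The treatment label is "control" for IVO MII and "treated" for IVM MII, and the labels used here do not state the culture medium, the hormone treatment of the animals, their age, or whether cumulus cells were present during culture. RNA was primed at the poly(A) tail, copied with template switching, amplified as full-length cDNA and fragmented by tagmentation, and paired ends were read on DNA nanoballs. Neither the number of oocytes in a library nor the animals behind it are stated. The p-values therefore rest on the spread between these samples alone, which may be technical. A poly(A)-primed count can also change when a tail is shortened or lengthened while the number of molecules stays the same.

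An oocyte stores the transcripts it needs while it grows, and transcription is largely silent from the germinal vesicle stage until the embryonic genome is activated. During maturation, maturation-promoting factor (the kinase CDK1 with a B-type cyclin) drives the oocyte through the first meiotic division, and the MOS and MAP kinase pathway then holds it at metaphase II until fertilisation. Over the same period stored messages are polyadenylated and translated or deadenylated and destroyed, so the RNA of an MII oocyte records what was stored and what was removed.

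Levels are in CPM (counts scaled by library size, with sizes adjusted by TMM, the trimmed mean of M values). The values of a gene are given as replicates 1 and 2 of IVO MII, then replicates 1, 2 and 3 of IVM MII. A log2 fold change is IVM MII minus IVO MII, with its standard error (SE). A gene was called where the edgeR quasi-likelihood test over all 14668 genes gave a Benjamini-Hochberg adjusted p under 0.05, and it is said not to overlap where all 3 IVM MII libraries lay on one side of both IVO MII libraries. Gene positions are those of the deposited table, whose assembly no source used here names.

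The libraries held 23550299 and 26343911 counts in IVO MII and 24332176, 26616841 and 29245733 in IVM MII. IVM MII replicate 3 stood apart from its group. Spearman's rho of log2(CPM + 1) over genes was 0.953 between IVM MII replicates 1 and 2. Replicate 3 reached 0.919 and 0.923 with them and 0.902 and 0.901 with the IVO MII libraries, which had 0.912 with each other. These values are over genes, which are no independent replicates. The widest gap was between IVO MII replicate 2 and IVM MII replicate 1 (0.827), where 13.7% of tested genes differed over 4-fold. At 1 CPM or more of the unscaled totals, 11919 ± 495 genes (SD, n = 2) were detected in IVO MII and 11630.7 ± 404.8 (SD, n = 3) in IVM MII (two-sided exact permutation p = 0.6, where 0.2 is the smallest that 2 against 3 libraries can give).

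The labelled cell type matched its markers. All 14 oocyte markers exceeded 10 CPM in at least 1 library, and their summed level was 6917.5 to 16495.9 CPM. Of 24 matched cumulus and granulosa markers, 6 had 0 counts in all 5 libraries, among them the hormone receptor gene LHCGR, the steroidogenic gene STAR and AMH. In at least 1 library, 10 of the 24 exceeded 1 CPM and 6 exceeded 10 CPM. The summed level of this list was 727.4 and 977.7 CPM in IVO MII and 433.2, 527.1 and 762.6 CPM in IVM MII, led by GATM, SERPINE2, TNFAIP6 and FST. GATM alone made up most of the sum in IVO MII. The markers of stroma, theca and endothelium summed to 58.7 to 132.1 CPM (7 of 16 at 0) and those of blood and immune cells to 0.247 to 4.82 CPM (7 of 13 at 0). Of these 2 lists, 4 and 0 markers exceeded 10 CPM in at least 1 library. The part of other cells in the differences given below was not tested, and in bulk libraries fewer cells of a type and less RNA per cell cannot be told apart.

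Between IVM MII and IVO MII, 54 of 14668 genes (0.368%) were called. Of these, 27 rose in IVM MII (0.184%) and 27 fell (0.184%), and the smallest change among them was 2.37 on the log2 scale. The genes that rose included FAM83D and DUSP5, which act on the spindle and on ERK kinases, the mitochondrial ribosomal genes MRPL16 and MRPL32, the complement regulator gene CD46 and the chromatin gene RBBP4. Those that fell included the guanylate kinase family gene MPP4, the ankyrin repeat gene ANKRD22, the mucin gene MUC17, the neuronal growth gene GAP43 and the adhesion gene IGSF9. The oocyte-specific genes with the best-known roles in maturation and fertilisation, such as GDF9, BMP15, MOS and the zona pellucida genes, were not called in either direction, although ZP2 was in the fit of all 7 libraries.

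The number of calls rested on single libraries. Without IVM MII replicate 1, and again without replicate 2, edgeR called 0 genes, with 1610 and 1564 genes at an unadjusted p under 0.05 against 2529 in the full data. Without IVM MII replicate 3 it called 449 genes (3.19%), 317 higher and 132 lower, which held all 54. Without IVO MII replicate 1 it called 82 (0.515%, with 59 higher, 23 lower and 27 of the 54 among them), and without IVO MII replicate 2 it called 26 (0.166%, with 6 higher, 20 lower and 22 of the 54 among them). Of the 54, 5 that rose and 14 that fell were called with either IVO MII library left out: CD46, ZNF711, ART3 and FAM83D among those that rose, MPP4, ANKRD22, GAP43 and IGSF9 among those that fell, and 11 genes without a symbol. Among the genes that fell, LOC102121051 (bases 18485367 to 18488054) and LOC102121305 (bases 18429400 to 18487304) overlap on chromosome 8, so their calls may not be separate. In the fit of all 7 libraries 241 of 16374 genes (1.47%) were called, 146 higher (0.892%) and 95 lower (0.58%), with 52 of the 54 among them. The GV libraries enter the spread of that fit and were known from earlier results to lie closer to each other than the MII libraries. A call there is no separate evidence on IVM MII against IVO MII, since the MII values are the same. With 1 library left in a group, its spread is taken to be that of the other group. The groups of all 54 did not overlap, so leaving out a library could not turn a direction.

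**Figure D1:**
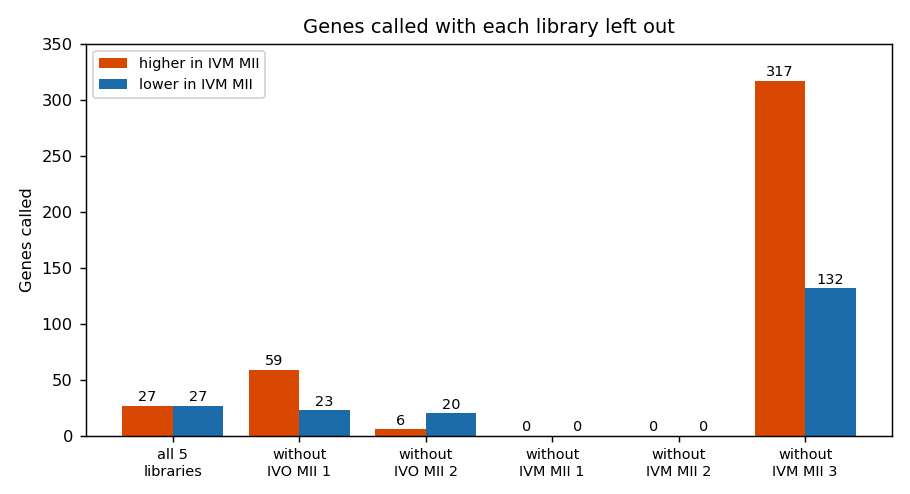
Number of genes called by edgeR (vertical axis) with all 5 MII libraries and with each library left out in turn, split into genes higher (orange) and lower (blue) in IVM MII. The count is 27 and 27 with all libraries, 0 without IVM MII replicate 1 or 2, and 317 and 132 without IVM MII replicate 3.

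Calls were limited to large changes. Genes whose groups did not overlap numbered 5313 (36.2% of those tested), with 2793 above (19.0%) and 2520 below (17.2%) in IVM MII, and of these 909 and 660 exceeded 2 on the log2 scale while 27 and 27 were called. The median log2 fold change of all tested genes was -0.003, with 7308 positive and 7360 negative. In the plot of fold change against level the genes of highest CPM were not called. The median level in the higher group was 51.7 CPM for called genes and 10.4 CPM for all tested genes.

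**Figure D2:**
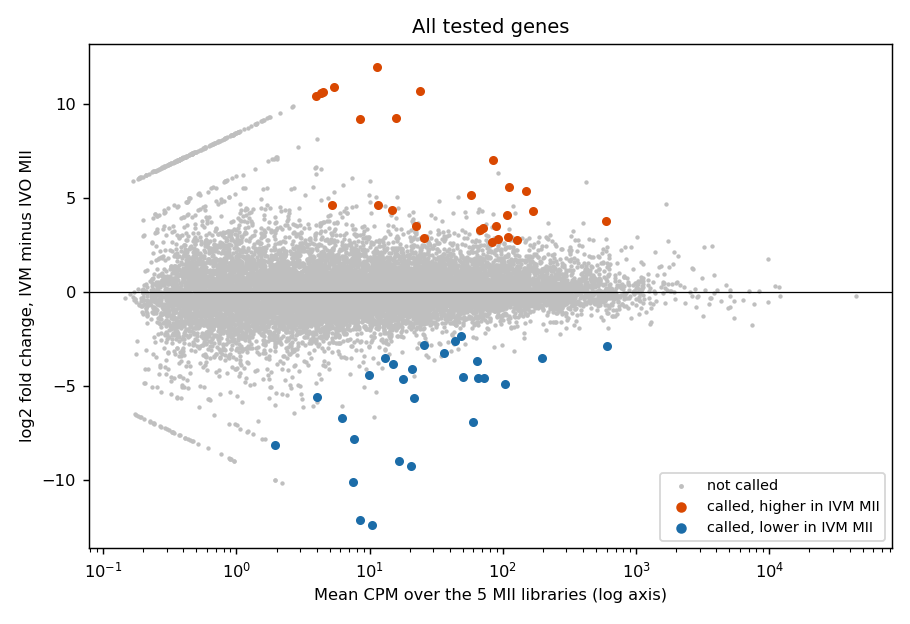
Log2 fold change of IVM MII minus IVO MII (vertical axis) against mean CPM over the 5 MII libraries (horizontal log axis), 1 point per tested gene. The 27 called genes that rose (orange) and the 27 that fell (blue) lie beyond 2.37 on either side, and the grey diagonal streaks are genes with 0 or very few counts in one group.

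The sharpest contrasts among genes that rose in IVM MII were genes almost without counts in IVO MII. CD46, whose product protects cells from complement and is also carried by sperm (chromosome 1, bases 66323691 to 66361684), was at 0 and 0 CPM in IVO MII and 23.3, 19.97 and 13.6 CPM in IVM MII. All 3 cultured libraries held it and neither in vivo library had a count, which makes it at least 161-fold higher against a floor of 3 counts per library (edgeR adjusted p = 0.0158). ZNF711, an X-linked zinc finger gene (chromosome X, bases 82386170 to 82415217), was at 0.0446 and 0 CPM in IVO MII and 60.2, 38.6 and 21.3 CPM in IVM MII. The IVO MII value is 1 count in all, so the ratio of 1964 (95% counting interval 352 to 77615) is wide (edgeR adjusted p = 0.0143). MATN3, which encodes a cartilage matrix protein (chromosome 13, bases 91004597 to 91026848), had 2 counts over both IVO MII libraries and 16.1, 52.3 and 10.5 CPM in IVM MII, a ratio of 686 (95% counting interval 189.7 to 5669). FAM221A (chromosome 3, bases 97056214 to 97083179) had 1 count in IVO MII and 9.25, 10.7 and 22.3 CPM in IVM MII. In these 4 genes the IVM MII libraries also differed from each other, most in MATN3, and each lay far above IVO MII. Without IVO MII replicate 2 the calls of MATN3 and FAM221A were lost, and without IVO MII replicate 1 that of MATN3. Limma voom called none of the 4. The counting error is all that such intervals and floors cover, since the PCR copies carry no molecular identifiers.

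Another group of genes that rose was present in IVO MII at a low level. FAM83D, which encodes a protein of the mitotic spindle (chromosome 10, bases 70544833 to 70573725), was at 3.16 and 4.63 CPM in IVO MII and 269.6, 171 and 111 CPM in IVM MII. Both in vivo libraries were low and every cultured library was above 100 CPM (log2 fold change 5.55 ± 0.59 SE, adjusted p = 0.0170 by edgeR). DUSP5, which encodes a nuclear phosphatase that inactivates ERK kinases (chromosome 9, bases 109692286 to 109706381), was at 3.97 and 1.32 CPM in IVO MII and 112, 126 and 44.3 CPM in IVM MII. The third cultured library was lower than the other two but still above both in vivo libraries (log2 fold change 5.16 ± 0.76 SE, adjusted p = 0.0462 by edgeR). ART3, of the ADP-ribosyltransferase family (chromosome 5, bases 58369328 to 58467025), was at 1.92 and 0.271 CPM in IVO MII and 177, 118 and 122 CPM in IVM MII. Its cultured libraries were close to each other, and the in vivo libraries were far below them (log2 fold change 7.01 ± 0.90 SE, adjusted p = 0.0284 by edgeR). RGS7, a regulator of G protein signalling (chromosome 1, bases 8096772 to 8666383), was at 1.25 and 1.08 CPM in IVO MII and 30.4, 25.8 and 15.1 CPM in IVM MII, and its log2 fold change was 4.35 (SE 0.59). The call of DUSP5 was lost without IVO MII replicate 2, and that of RGS7 without either IVO MII library and by limma voom.

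Further genes that rose were RBBP4, MRPL32, MRPL16, LAMTOR3 and FUBP1. RBBP4, a histone-binding subunit of several chromatin complexes (chromosome 1, bases 195292030 to 195321749), was at 15.2 and 12.99 CPM in IVO MII and 369, 322 and 126 CPM in IVM MII (log2 fold change 4.27 ± 0.59 SE, adjusted p = 0.0338 by edgeR). MRPL32, of the large subunit of the mitochondrial ribosome (chromosome 3, bases 77532760 to 77538215), was at 13.3 and 6.97 CPM in IVO MII and 209.9, 228 and 80.9 CPM in IVM MII. MRPL16, of the same subunit (chromosome 14, bases 14288254 to 14293286), was at 0.579 and 0.947 CPM in IVO MII and 18.97, 27.7 and 9.66 CPM in IVM MII. In all 3 of these genes IVM MII replicate 3 was the lowest cultured library. The log2 fold changes of the mitochondrial ribosomal genes were 4.09 (SE 0.63) and 4.60 (SE 0.72). LAMTOR3, a scaffold for MAP kinase and mTORC1 signalling on late endosomes (chromosome 5, bases 99150447 to 99164003), was at 99.7 and 40.5 CPM in IVO MII and 1365, 808 and 649 CPM in IVM MII, with no overlap and a call just inside the threshold (edgeR adjusted p = 0.0483). FUBP1, which encodes a nucleic acid-binding protein of the MYC far upstream element (chromosome 1, bases 149243680 to 149283374), was just inside as well, at 5.17 and 5.41 CPM in IVO MII and 38.2, 36.6 and 41.4 CPM in IVM MII. Its libraries differed little within either group. RBBP4, MRPL32, MRPL16 and FUBP1 lost their calls without either IVO MII library, and LAMTOR3 without replicate 2. MRPL16 also lost its call with upper quartile scaling and by limma voom.

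The other genes with a symbol that rose are named after their values were seen. They were FBXW7, which encodes the substrate receptor of an SCF ubiquitin ligase, DIRAS3, a RAS-like GTPase gene, PIWIL1, a germline Argonaute gene of the piRNA pathway, the mitochondrial peptidase gene PITRM1, the mitophagy receptor gene BNIP3, the endoplasmic reticulum thioredoxin gene TMX1, AAED1 and GREP1. FBXW7 was at 12.6 and 12.2 CPM in IVO MII and 163, 131 and 124 CPM in IVM MII. PIWIL1 was at 19.6 and 24.5 CPM in IVO MII and 169, 167 and 165 CPM in IVM MII, with the 3 cultured libraries close together. BNIP3 was at 35.3 and 22.9 CPM in IVO MII and 182, 159 and 239.6 CPM in IVM MII. In each of these 3 genes the groups did not overlap, and the log2 fold changes were 3.49, 2.92 and 2.73. All 3 calls were lost without either IVO MII library.

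Genes that fell in IVM MII included several with over 90 CPM in both in vivo libraries. MPP4, a membrane-associated guanylate kinase gene (chromosome 12, bases 91058156 to 91113880), was at 288 and 208 CPM in IVO MII and 7.71, 5.28 and 12.2 CPM in IVM MII. Both in vivo libraries were above 200 CPM and no cultured library reached 13 (log2 fold change -4.88 ± 0.48 SE, adjusted p = 0.0143 by edgeR). ANKRD22, an ankyrin repeat gene (chromosome 9, bases 87376033 to 87404692), was at 202 and 93.4 CPM in IVO MII and 2.10, 1.33 and 0.328 CPM in IVM MII. It was high in both in vivo libraries, though these differed from each other by more than the cultured ones did in CPM (log2 fold change -6.90 ± 0.79 SE, adjusted p = 0.0190 by edgeR). MUC17, of the membrane-bound mucins (chromosome 3, bases 45355556 to 45366733), was at 1138 and 1381 CPM in IVO MII and 121, 131 and 266 CPM in IVM MII (log2 fold change -2.87 ± 0.43 SE, adjusted p = 0.0475 by edgeR). Its symbol came from a match of the locus identifier. IVM MII replicate 3 was the cultured library nearest to the in vivo level, and the call was lost without either IVO MII library and in the fit of all 7 libraries (edgeR adjusted p = 0.0974).

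Others fell to very low counts. IGSF9, of the immunoglobulin superfamily of adhesion proteins (chromosome 1, bases 91727631 to 91746623), was at 14.3 and 37.5 CPM in IVO MII. No cultured library had a count of it, which makes it at least 222-fold lower (edgeR adjusted p = 0.0192). GAP43, which encodes a growth cone protein of neurons (chromosome 2, bases 156527560 to 156628909), was at 20.8 and 61.9 CPM in IVO MII and 0.0934, 0.0369 and 0.0985 CPM in IVM MII. The cultured value rests on 6 counts in all, and the in vivo libraries differed from each other (log2 fold change -9.00 ± 0.78 SE, adjusted p = 0.0143 by edgeR). POU2F3, a POU-domain transcription factor gene (chromosome 14, bases 116309505 to 116387891), was at 21.03 and 9.61 CPM in IVO MII and 0, 0.148 and 0.263 CPM in IVM MII, from 12 counts over the cultured libraries. TCEAL4, of a family related to transcription elongation factors (chromosome X, bases 100405744 to 100407985), was at 30.7 and 15.7 CPM in IVO MII and 0.701, 1.40 and 1.08 CPM in IVM MII. It lost its call without IVO MII replicate 1, and POU2F3 without either IVO MII library. IGSF9, GAP43 and POU2F3 were not called by limma voom.

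FAM110A (chromosome 10, bases 61750791 to 61766685) was at 15.4 and 69.2 CPM in IVO MII and 1.22, 1.81 and 2.04 CPM in IVM MII, so that the cultured libraries were alike and the in vivo libraries far apart, and the call was lost without IVO MII replicate 2 and by limma voom. OPN5, an opsin gene (chromosome 4, bases 122729829 to 122774075), was at 35.6 and 21.6 CPM in IVO MII and 3.74, 1.99 and 1.71 CPM in IVM MII, with an edgeR adjusted p of 0.0483, just inside the threshold and lost without either IVO MII library or in the fit of all 7 (edgeR adjusted p = 0.0552). The uncharacterised gene C11H12orf56 (chromosome 11, bases 63291746 to 63414033) was at 77.4 and 96.6 CPM in IVO MII and 16.6, 12.6 and 13.7 CPM in IVM MII, the smallest fall among called genes with a symbol (log2 fold change -2.61, SE 0.38), and its call was lost without either IVO MII library. CCDC63, a coiled-coil gene named after its values were seen, was at 9.98 and 9.64 CPM in IVO MII and 0.187, 0.0738 and 0.328 CPM in IVM MII. The epithelial transcription factor gene ELF5 lay just outside the threshold at 65.95 and 70.3 CPM in IVO MII and 4.76, 2.55 and 9.36 CPM in IVM MII (edgeR adjusted p = 0.0511). The neurexophilin gene NXPH1, at 9.05 and 7.98 CPM in IVO MII and 55.1, 64.5 and 45.5 CPM in IVM MII, was just outside it too (edgeR adjusted p = 0.0522). The same held for the cytokine gene IL15, at 0 counts in IVO MII and 11.1, 2.36 and 7.09 CPM in IVM MII. In the fit of all 7 libraries, whose spread also rests on the GV libraries, ELF5, NXPH1 and IL15 were called (edgeR adjusted p = 0.0256, 0.0219 and 0.0291).

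**Figure D3:**
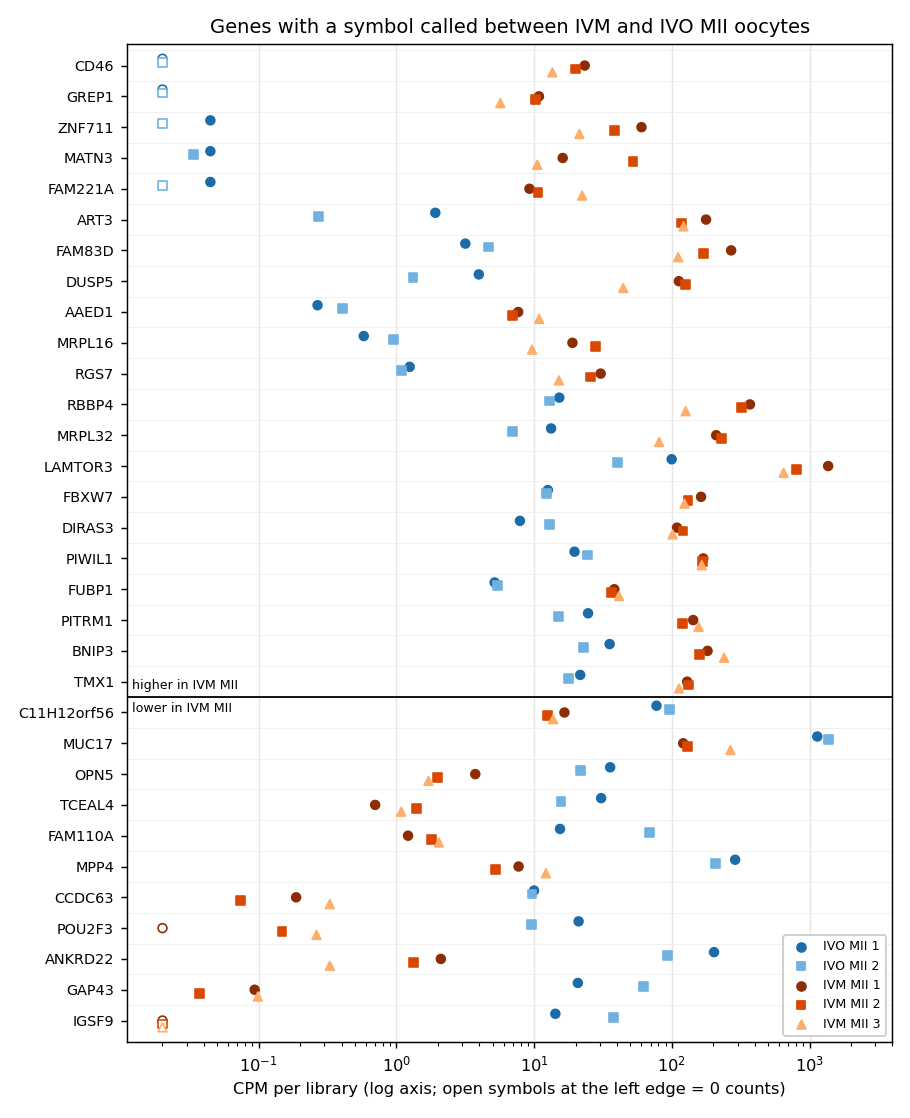
CPM per library (horizontal log axis) for the 32 called genes with a symbol, with the IVO MII libraries in blue and the IVM MII libraries in brown and orange, and open symbols at the left edge for 0 counts. The groups are separate in every gene shown, and for many genes that rose the triangle of IVM MII replicate 3 lies nearest to the blue symbols.

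IVM MII replicate 3 was the cultured library nearest to IVO MII in 20 of the 27 genes that rose and in 11 of the 27 that fell. The share among all tested genes was not computed, so these counts do not set the called genes apart. Over all tested genes replicate 3 also had the highest rho with the IVO MII libraries (0.902 and 0.901, against 0.827 to 0.889 for the other cultured libraries). Of the genes that rose 77.8% had a symbol, close to the 76.9% of all tested genes, and of those that fell 40.7% did. The genes that rose had a median length of 2524 bases and those that fell of 1612, against 3060 for all tested genes. These differences in make-up were not tested. With the tested genes in 5 bins of length, the shortest had a median log2 fold change of 0.196 and the longest of -0.124, and the shortest held 12 of the genes that fell and the longest 0. In that shortest bin the median log2 difference of IVO MII replicate 1 minus replicate 2 was 0.239, wider than the median difference between the groups. The part of transcript length in the calls was not tested. Among called genes without a symbol, LOC107129412 (chromosome 4, bases 31165676 to 31187939), at 27.2 and 15.4 CPM in IVO MII, had 0 counts in IVM MII, at least 183-fold lower, and LOC102126543 fell from 544 and 319.8 CPM in IVO MII to 37.5, 28.01 and 45.7 CPM in IVM MII.

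Levels in GV oocytes are given for a few of these genes on a common scale of all 7 libraries, as a description, because the GV libraries came from a separate folder per the labels, which cannot be told apart from the stage. These genes follow no set rule and do not describe the called genes as a set. DUSP5 was at 189 and 243 CPM in GV, with means of 3.02 in IVO MII and 108 in IVM MII. MRPL32 was at 135 and 176 CPM in GV, with means of 11.6 in IVO MII and 198 in IVM MII. For these 2 genes the cultured level was nearer to the GV level than the in vivo level was. Other genes that rose went the other way. TMX1 was at 20.8 and 18.6 CPM in GV, with means of 22.6 in IVO MII and 143 in IVM MII. FBXW7 was at 24.65 and 32.6 CPM in GV, with means of 14.2 in IVO MII and 160 in IVM MII. FAM83D, at 23.4 and 14.3 CPM in GV with means of 4.45 in IVO MII and 211 in IVM MII, was above GV in culture and below it in vivo. ANKRD22, at 1.996 and 2.31 CPM in GV with means of 169 in IVO MII and 1.44 in IVM MII, was high in IVO MII alone among the 3 groups. FAM110A, at 106 and 78.4 CPM in GV with means of 48.3 in IVO MII and 1.93 in IVM MII, had an in vivo mean below both GV libraries and its lowest mean in IVM MII, while the in vivo libraries themselves were far apart.

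Of the 26 gene lists examined, 3 had a called member in edgeR, with 1 gene each: DUSP5 among the genes of meiotic arrest, FAM83D among the spindle proteins and CD46 among the egg surface genes. The lists are therefore described by how many members did not overlap and by their median, beside 19.0% above, 17.2% below and a median of -0.003 for all tested genes. No list was tested. Under other scalings, filters and sets of libraries the median changed sign at least once in 17 of 25 lists. The list of blood and immune markers, with 2 tested members, was left out of that count. For lists with 0 called members among the 5-library calls, the number of members at an unadjusted edgeR p under 0.05 and the number called by DESeq2 are given beside 2529 and 1379 (9.4%) of all tested genes. On data simulated from the spread that edgeR fitted, with no library apart from its group, DESeq2 made 50 false calls among 205 and edgeR 6 among 150. That setting favours edgeR and differs from these libraries, so it cannot rank the tools here. The DESeq2 counts are a description only.

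**Figure D4:**
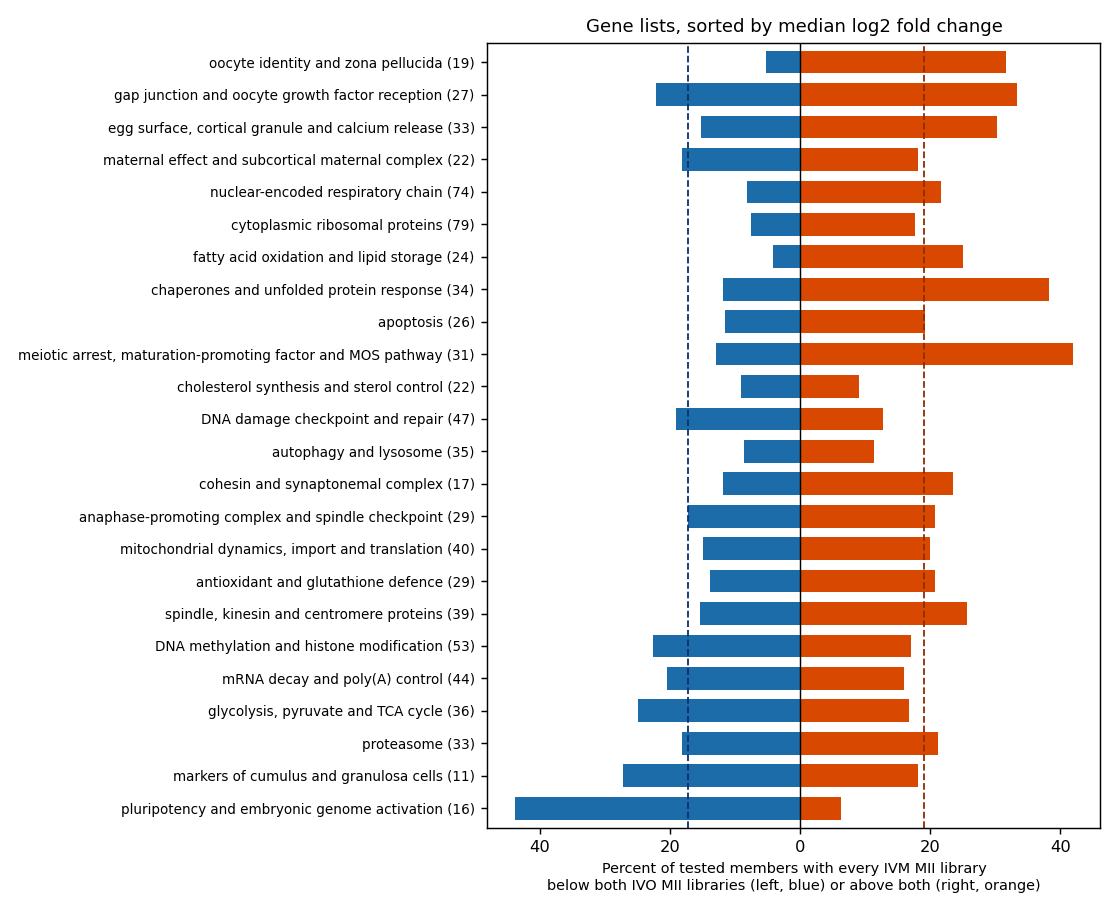
Share of tested members of each list whose IVM MII libraries all lay above both IVO MII libraries (orange, right) or all below (blue, left), with the number tested in brackets, for 24 lists sorted by median log2 fold change. Dashed lines mark the shares among all tested genes, 19.0% above and 17.2% below, and the pluripotency list at the bottom has 43.8% below and 6.25% above.

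Genes of meiotic arrest, maturation-promoting factor and the MOS pathway held the largest share of members above in culture among these lists. Of 31 tested members 13 lay above and 4 below without overlap, 41.9% against the 19.0% of all genes, while the median was 0.17 (-0.04 to 0.59 with each library left out). CDK1, the kinase of maturation-promoting factor, was at 7.89 and 2.33 CPM in IVO MII and 95.7, 207 and 16.6 CPM in IVM MII. Every cultured library was above both in vivo ones, but the cultured values were far apart and the gene was not called (log2 fold change 4.38 ± 1.10 SE, adjusted p = 0.110 by edgeR). Its small partner CKS2 was at 254 and 233 CPM in IVO MII and 1501, 1590.0 and 289 CPM in IVM MII, with IVM MII replicate 3 near the in vivo level. CKS1B, the related subunit gene and by TPM (counts per gene length, scaled by library) the most abundant transcript with a symbol in these libraries, was at 5998 and 2129 CPM in IVO MII and 19837, 11230.0 and 9832 CPM in IVM MII. MOS, the kinase that holds metaphase II arrest, was at 36.5 and 20.9 CPM in IVO MII and 60.7, 79.9 and 135 CPM in IVM MII, higher in all 3 cultured libraries without a call (log2 fold change 1.68 ± 0.50 SE, adjusted p = 0.153 by edgeR). CCNB1, the B-type cyclin, was at 889.7 and 1065 CPM in IVO MII and 815, 714 and 1008 CPM in IVM MII, where the groups overlapped. The cyclin gene CCNB3 and the MAP kinase kinase gene MAP2K1 lay below in every cultured library, at log2 fold changes of -1.15 and -0.67, and were picked after their values were seen.

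The checkpoint genes were close to the background. In the anaphase-promoting complex and spindle checkpoint list 6 of 29 members lay above and 5 below (0 called, 3 at an unadjusted edgeR p under 0.05 and 1 called by DESeq2). BUB3, a mitotic checkpoint protein gene, was at 247 and 126 CPM in IVO MII and 810.2, 631 and 541 CPM in IVM MII (log2 fold change 1.83 ± 0.43 SE, adjusted p = 0.0995 by edgeR). UBE2C, the ubiquitin-conjugating enzyme of that complex, was at 87.6 and 23.03 CPM in IVO MII and 156, 133 and 156 CPM in IVM MII. MAD2L1BP, whose product helps to silence the checkpoint, was at 63.9 and 34.5 CPM in IVO MII and 128, 91.6 and 119 CPM in IVM MII. These 3 were higher in every cultured library, and none was called. Of 39 tested spindle, kinesin and centromere genes 10 lay above and 6 below. Their log2 fold changes were positive in 18 and negative in 21, with a median of -0.06. Among them beside FAM83D, the kinetochore gene SPC25 and the spindle gene TACC3 had log2 fold changes of 1.88 and 1.24. The oocyte tubulin gene TUBB8 was at 9.89 and 32 CPM in IVO MII and 1.92, 4.24 and 9.79 CPM in IVM MII, lower in each cultured library and only just so in replicate 3. TUBB8 has close relatives, and its counts are uncertain. In the list of cohesin and synaptonemal complex genes 4 of 17 lay above and 2 below, with a median of 0.06 (0 called, 4 at an unadjusted edgeR p under 0.05, 1 called by DESeq2). TEX12, a central element protein of the synaptonemal complex, was at 3.65 and 1.66 CPM in IVO MII and 111, 154 and 20.7 CPM in IVM MII. It lay well above IVO MII in IVM MII replicates 1 and 2 and less so in replicate 3 (log2 fold change 5.17 ± 0.96 SE, adjusted p = 0.0748 by edgeR, and 0.0385 in the fit of all 7). The cohesin genes SMC3 and PDS5B were higher in each cultured library as well, at 0.96 and 1.45 on the log2 scale.

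Oocyte identity and zona pellucida genes had a median log2 fold change of 0.76 (0.18 to 0.84 with each library left out), with 6 of 19 above and 1 below, 0 called by edgeR, 4 at an unadjusted edgeR p under 0.05 and 3 called by DESeq2. ZP2, a zona glycoprotein that binds sperm, was at 907 and 659.6 CPM in IVO MII and 2609, 3177 and 2967 CPM in IVM MII. The cultured libraries were tightly grouped above both in vivo ones, and the gene missed the threshold with the 5 MII libraries (log2 fold change 1.90 ± 0.35 SE, adjusted p = 0.0710 by edgeR) and passed it in the fit of all 7 (edgeR adjusted p = 0.0303). ZP3 was at 552 and 1329.9 CPM in IVO MII and 257, 1246 and 3812 CPM in IVM MII, so that the cultured libraries spanned the whole in vivo range. ZP4 was at 487 and 455 CPM in IVO MII and 323, 1139.5 and 1331 CPM in IVM MII. ZP1 was at 25.5 and 57.6 CPM in IVO MII and 26.7, 51.5 and 104 CPM in IVM MII. The groups overlapped in both. JAG1, a Notch ligand gene, was at 335 and 184 CPM in IVO MII and 1506, 1507 and 1049.9 CPM in IVM MII (edgeR adjusted p = 0.0652, and 0.0291 in the fit of all 7). The oocyte transcription factor gene LHX8 was at 2.99 and 8.29 CPM in IVO MII and 40.5, 46.4 and 9.69 CPM in IVM MII. The growth factor genes that the oocyte secretes to its cumulus cells did not separate. GDF9 was at 2005 and 2427 CPM in IVO MII and 1878, 4254 and 5124 CPM in IVM MII. BMP15 was at 641 and 1247 CPM in IVO MII and 951, 875 and 1067 CPM in IVM MII.

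Maternal effect genes lay on both sides, with 4 of 22 above and 4 below (0 called, 5 at an unadjusted edgeR p under 0.05, 4 called by DESeq2). Within the subcortical maternal complex, which the early embryo needs for its first cleavages, members lay on different sides. OOEP was at 1900.3 and 2460.5 CPM in IVO MII and 884, 581 and 657 CPM in IVM MII, below both in vivo libraries in each cultured one (log2 fold change -1.62 ± 0.34 SE, adjusted p = 0.0870 by edgeR). TLE6, of the same complex, was at 17.7 and 27.6 CPM in IVO MII and 47.1, 135 and 47.3 CPM in IVM MII, above both. NLRP5 was at 40.7 and 46.6 CPM in IVO MII and 46.2, 129.7 and 29.1 CPM in IVM MII, and overlapped. PADI6 overlapped as well, at 40.95 and 143 CPM in IVO MII and 73.6, 103 and 197 CPM in IVM MII. DPPA3, which protects the maternal genome from loss of methylation, was at 15369 and 8426 CPM in IVO MII and 12246, 7048 and 5402 CPM in IVM MII. NPM2, which encodes a histone chaperone, was at 21.6 and 49.8 CPM in IVO MII and 46.9, 81.7 and 51.1 CPM in IVM MII, where the groups overlapped. ZAR1, which binds maternal messages, was at 30.4 and 21.7 CPM in IVO MII and 18.6, 19.7 and 8.05 CPM in IVM MII, lower in each cultured library. Its relative ZAR1L, at 159.7 and 126 CPM in IVO MII and 480.0, 542 and 299.8 CPM in IVM MII, was higher in each. None of these genes was called with the 5 MII libraries, and OOEP was in the fit of all 7 (edgeR adjusted p = 0.0438). With SEs of 0.34 to 0.62 on the log2 scale a missed threshold does not show that they were alike.

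**Figure D5:**
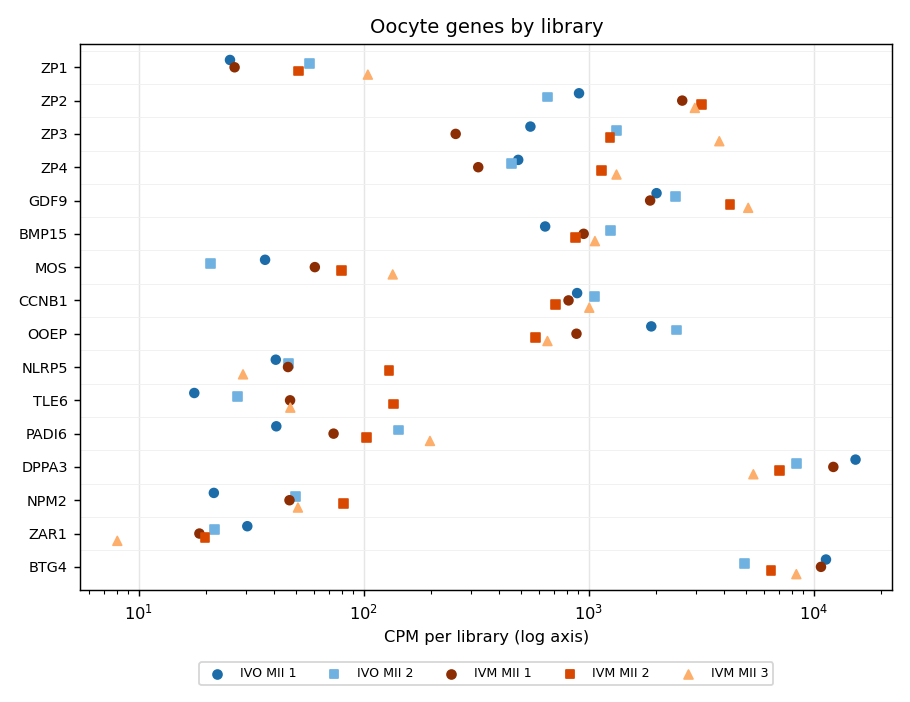
CPM per library (horizontal log axis) for 16 oocyte genes, with the IVO MII libraries in blue and the IVM MII libraries in brown and orange. The groups are separate for ZP2, MOS and TLE6 (higher in IVM MII) and for OOEP and ZAR1 (lower), and they overlap for the other 11 genes.

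Genes for mRNA decay and poly(A) control had 7 of 44 members above and 9 below, with a median of -0.15 (0 called, 8 at an unadjusted edgeR p under 0.05, 5 called by DESeq2). BTG4, the adaptor that brings the CCR4-NOT deadenylase to maternal messages, was among the most abundant genes and overlapped, at 11358 and 4949 CPM in IVO MII and 10790.2, 6474 and 8385 CPM in IVM MII (log2 fold change 0.07 ± 0.43 SE, adjusted p = 0.961 by edgeR). TOB1, an antiproliferative adaptor of the same deadenylase, was at 63.3 and 40.01 CPM in IVO MII and 126, 278 and 83.8 CPM in IVM MII. The deadenylase gene CNOT6 was at 22.4 and 17.1 CPM in IVO MII and 63.9, 77.7 and 37.5 CPM in IVM MII. CPEB2, of the cytoplasmic polyadenylation element-binding family, was at 22.5 and 21.8 CPM in IVO MII and 85.5, 80.3 and 33.2 CPM in IVM MII. All 3 were higher in every cultured library. In the opposite direction, CNOT7, another deadenylase subunit, was at 537 and 446 CPM in IVO MII and 188, 164 and 178 CPM in IVM MII. The poly(A)-binding protein gene PABPC1L was at 14.1 and 25.5 CPM in IVO MII and 2.29, 0.923 and 2.33 CPM in IVM MII. Both were chosen after their values were seen.

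Genes of pluripotency and embryonic genome activation had the lowest median of the 26 lists. Of 16 tested members 7 lay below both in vivo libraries in every cultured one and 1 above, with a median of -0.81 (-0.93 to -0.57 with each library left out, the same sign each time). By edgeR 0 were called, 6 had an unadjusted p under 0.05 and DESeq2 called 3. TFAP2C, a transcription factor gene of the early embryo and trophoblast, was at 79.4 and 90.3 CPM in IVO MII and 26.9, 16.9 and 37.1 CPM in IVM MII (log2 fold change -1.65 ± 0.43 SE, adjusted p = 0.121 by edgeR). DPPA5, which encodes an RNA-binding protein of pluripotent cells, was at 272 and 136 CPM in IVO MII and 98.1, 94.5 and 86.4 CPM in IVM MII. YAP1, the Hippo pathway coactivator gene, was at 65.8 and 55.03 CPM in IVO MII and 29.2, 25.2 and 34.3 CPM in IVM MII. In these 3 genes the highest cultured library stayed below the lowest in vivo one.

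Genes through which the oocyte communicates with its follicle had 9 of 27 members above and 6 below, with a median of 0.61 (0.38 to 0.70 with each library left out), 0 called by edgeR, 7 at an unadjusted p under 0.05 and 3 called by DESeq2. ERBB4, a receptor of neuregulins and other EGF-like ligands, was at 60.7 and 52.8 CPM in IVO MII and 279, 311 and 214 CPM in IVM MII (log2 fold change 2.24 ± 0.38 SE, adjusted p = 0.0578 by edgeR, and 0.0240 in the fit of all 7). The TGF-beta co-receptor gene TGFBR3 was at 33.96 and 18.3 CPM in IVO MII and 9.62, 12.7 and 7.26 CPM in IVM MII. The activin receptor gene ACVR1B was at 75.2 and 138 CPM in IVO MII and 40.04, 28.8 and 60.5 CPM in IVM MII. Both were lower in each cultured library. Of 11 tested cumulus and granulosa markers 2 lay above and 3 below (0 called, 5 at an unadjusted edgeR p under 0.05, 5 called by DESeq2). GATM, a creatine synthesis gene, was at 546 and 620.0 CPM in IVO MII and 150.0, 172 and 268 CPM in IVM MII. FSHR, the receptor of follicle-stimulating hormone, was at 5.26 and 2.91 CPM in IVO MII and 46.6, 26.4 and 19.1 CPM in IVM MII. TNFAIP6, a matrix gene of cumulus expansion, was at 40.3 and 16 CPM in IVO MII and 129.8, 101 and 48.5 CPM in IVM MII. So GATM was lower and FSHR and TNFAIP6 higher in every cultured library, without a call. The summed markers of these cells given above were lower in 2 of the 3 cultured libraries than in either in vivo one. GATM made up most of that sum in IVO MII, so the direction of the sum follows this gene and does not describe the other markers. Of 6 tested markers of stroma, theca and endothelium 0 lay above and 2 below (0 called, 1 at an unadjusted edgeR p under 0.05, 1 called by DESeq2), and of 2 tested blood markers 0 lay on either side (0 called by edgeR or DESeq2, 0 at an unadjusted edgeR p under 0.05). The endothelial gene CDH5 was at 25.7 and 49.1 CPM in IVO MII and 12.1, 10.1 and 9.03 CPM in IVM MII.

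Egg surface, cortical granule and calcium release genes had 10 of 33 members above and 5 below, with a median of 0.47 (0.39 to 1.00 with each library left out). Beside CD46, its neighbour in function CD55, another complement regulator on the cell surface, was at 91.2 and 76.3 CPM in IVO MII and 827, 597 and 246 CPM in IVM MII (log2 fold change 2.73 ± 0.56 SE, adjusted p = 0.0827 by edgeR, and 0.0436 in the fit of all 7). It lies on the same chromosome as CD46 (bases 65898887 to 65936381), and both were higher in every cultured library. The complement regulators are related in sequence, and reads could be shared among them. ASTL, the cortical granule protease that cleaves ZP2 after fertilisation, was at 5.44 and 9.71 CPM in IVO MII and 15, 72.7 and 29.9 CPM in IVM MII. CALM2, 1 of several genes with the same calmodulin protein, was at 1704 and 120.3 CPM in IVO MII and 6719, 4740.1 and 3004 CPM in IVM MII, where the in vivo libraries were far apart and both lay below the cultured ones.

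Protein folding genes had more members above than below in culture: 13 of 34 chaperone and unfolded protein response genes lay above and 4 below, 38.2% against 19.0%, with a median of 0.32 (0.16 to 0.42 with each library left out). By edgeR 0 were called, with 7 at an unadjusted p under 0.05, and DESeq2 called 2. HSPA5, the master chaperone of the endoplasmic reticulum, was at 2.58 and 3.92 CPM in IVO MII and 12.01, 115 and 19.9 CPM in IVM MII. IVM MII replicate 2 was far above the other cultured libraries (log2 fold change 3.91 ± 1.05 SE, adjusted p = 0.128 by edgeR). HSP90B1, its HSP90 counterpart, was at 19.1 and 38.4 CPM in IVO MII and 137, 128 and 54.9 CPM in IVM MII. HERPUD1, a gene of endoplasmic reticulum-associated degradation, was at 6.86 and 3.18 CPM in IVO MII and 18.7, 21.3 and 7.82 CPM in IVM MII. In the apoptosis list, which was near the background with 5 of 26 above and 3 below (0 called, 5 at an unadjusted edgeR p under 0.05, 2 called by DESeq2), GADD45A, a growth arrest gene, was at 8.02 and 5.88 CPM in IVO MII and 33.6, 48.3 and 23.2 CPM in IVM MII (edgeR adjusted p = 0.0937, and 0.0497 in the fit of all 7). Of antioxidant and glutathione genes 6 of 29 lay above and 4 below, 13 had a positive and 16 a negative log2 fold change, and the median was -0.03 (0 called, 7 at an unadjusted edgeR p under 0.05, 3 called by DESeq2). The mitochondrial glutaredoxin gene GLRX2 was at 15.9 and 3.35 CPM in IVO MII and 141, 139 and 72.4 CPM in IVM MII (log2 fold change 3.61 ± 0.74 SE, adjusted p = 0.0829 by edgeR). The thioredoxin reductase gene TXNRD1 and the redox regulator gene NFE2L2 were higher in each cultured library at log2 fold changes of 2.22 and 1.24.

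Of 74 tested genes of the nuclear-encoded respiratory chain 51 had a positive and 23 a negative log2 fold change, without a called member, 16 lay above and 6 below, and the median was 0.39 (14 at an unadjusted edgeR p under 0.05, 9 called by DESeq2). That median was 0.17 to 1.35 with each library left out, the highest without IVO MII replicate 1. NDUFA5 of complex I was at 9.58 and 5.51 CPM in IVO MII and 181, 199 and 24.3 CPM in IVM MII (log2 fold change 4.16 ± 0.92 SE, adjusted p = 0.0947 by edgeR). NDUFC1 was at 86.7 and 5.28 CPM in IVO MII and 404, 373 and 208 CPM in IVM MII. NDUFS6 was at 9.13 and 2.37 CPM in IVO MII and 35.3, 67.6 and 14.7 CPM in IVM MII, and both belong to complex I too. In each of these 3 genes IVO MII replicate 2 was the lowest library, and in NDUFC1 it was far below replicate 1. Ribosomal protein genes had a like median of 0.38, which ran from -0.08 to 1.07 with each library left out and was negative without IVO MII replicate 2, with 14 of 79 above and 6 below (0 called, 2 at an unadjusted edgeR p under 0.05, 2 called by DESeq2). RPL37 was at 11.01 and 3.31 CPM in IVO MII and 35.4, 24.2 and 26.2 CPM in IVM MII. RPL22 was at 11.1 and 1.32 CPM in IVO MII and 21.96, 23.9 and 17.8 CPM in IVM MII. Both had their lowest value in IVO MII replicate 2 and no overlap. Ribosomal protein genes have many processed copies, so their counts are uncertain.

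Other metabolic lists held members on both sides. In the list of glycolysis, pyruvate and the TCA cycle 17 log2 fold changes were positive and 19 negative. The median was -0.19 (-0.40 to 0.14 with each library left out). Of its 36 tested members 6 lay above and 9 below (0 called, 7 at an unadjusted edgeR p under 0.05, 3 called by DESeq2). Those above with the largest change were the malate dehydrogenase gene MDH1, at 53.1 and 13.9 CPM in IVO MII and 296, 317 and 66.1 CPM in IVM MII, and SUCLG2 and SUCLA2 of succinyl-CoA ligase, with log2 fold changes of 2.75 and 1.72. Of fatty acid oxidation and lipid storage genes 6 of 24 lay above and 1 below (0 called, 3 at an unadjusted edgeR p under 0.05, 1 called by DESeq2). HADHB, of the mitochondrial trifunctional protein, was at 12.9 and 4.46 CPM in IVO MII and 34.3, 28.2 and 15.2 CPM in IVM MII. In cholesterol synthesis and sterol control 2 of 22 lay above and 2 below, with a median of 0.12 (0 called, 3 at an unadjusted edgeR p under 0.05, 2 called by DESeq2). The isoprenoid enzyme gene IDI1 was at 11.4 and 10.1 CPM in IVO MII and 98.1, 87.1 and 47.1 CPM in IVM MII (log2 fold change 2.85 ± 0.49 SE, adjusted p = 0.0592 by edgeR). INSIG2, which retains the sterol sensor in the endoplasmic reticulum, was at 75.7 and 62.7 CPM in IVO MII and 474, 433 and 207 CPM in IVM MII. The squalene synthase gene FDFT1 was at 415 and 474 CPM in IVO MII and 241, 184 and 276 CPM in IVM MII. So IDI1 and INSIG2 were higher and FDFT1 lower in every cultured library, and the first 2 were called in the fit of all 7 (edgeR adjusted p = 0.0282 and 0.0368). Mitochondrial dynamics, import and translation genes were at the background (8 of 40 above, 6 below, 0 called, 6 at an unadjusted edgeR p under 0.05, 3 called by DESeq2). The called mitochondrial genes MRPL16, MRPL32, PITRM1 and BNIP3 are not members of this list. The fission factor gene MFF was at 25.4 and 10.99 CPM in IVO MII and 102, 83.3 and 53.7 CPM in IVM MII. The prohibitin gene PHB2 was at 16.9 and 29.3 CPM in IVO MII and 4.72, 4.83 and 8.05 CPM in IVM MII.

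The DNA methylation, DNA damage and proteasome lists were near the background as well. The autophagy list had smaller shares than all tested genes on both sides, at 11.4% above and 8.57% below. DNA methylation and histone modification genes had 9 of 53 above and 12 below (0 called, 10 at an unadjusted edgeR p under 0.05, 5 called by DESeq2). DNMT3B, a de novo DNA methyltransferase gene, was at 102 and 114 CPM in IVO MII and 49.01, 43.1 and 71.9 CPM in IVM MII. The acetyltransferase gene KAT6A was at 31.2 and 46.98 CPM in IVO MII and 14.2, 14.02 and 18.1 CPM in IVM MII. The histone variant gene H2AZ1 was at 19.1 and 10.4 CPM in IVO MII and 114, 127 and 35.8 CPM in IVM MII. The first 2 were lower and H2AZ1 higher in each cultured library. In the DNA damage list (6 of 47 above, 9 below, 0 called, 5 at an unadjusted edgeR p under 0.05, 3 called by DESeq2) the poly(ADP-ribose) polymerase genes lay on opposite sides. PARP1 was at 42.7 and 31.2 CPM in IVO MII and 94.6, 90.9 and 84.2 CPM in IVM MII. PARP2 was at 81.2 and 37.3 CPM in IVO MII and 21.2, 23.3 and 19.9 CPM in IVM MII. Proteasome genes had 7 of 33 above and 6 below (0 called, 8 at an unadjusted edgeR p under 0.05, 2 called by DESeq2), with the core subunit gene PSMB3 lower and the activator gene PSME4 higher in each cultured library (log2 fold changes -1.36 and 1.39). In the autophagy list (4 of 35 above, 3 below, 0 called, 5 at an unadjusted edgeR p under 0.05, 2 called by DESeq2) the cargo receptor gene SQSTM1 was at 11.01 and 41.97 CPM in IVO MII and 2.20, 2.62 and 8.38 CPM in IVM MII, below both in vivo libraries in each cultured one.

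None of the 10 most abundant transcripts per length was called. By mean TPM over the 5 libraries they were CKS1B (22919.9), TMSB4X (actin-binding thymosin, 15915), DPPA3 (14059.7), PTTG2 (13182), PTTG1 (securin, 9621), H3F3B (histone H3.3, 9053), BCL2L10 (8850.5), PCNA (7953), UBB (7811) and BTG4 (7260.3). PCNA, the sliding clamp of DNA replication, was at 4840.3 and 4911 CPM in IVO MII and 5620.1, 4739 and 5089.9 CPM in IVM MII, overlapping and with an SE of 0.30. UBB, a polyubiquitin gene, was at 6781 and 10383 CPM in IVO MII and 3968, 2671 and 3129 CPM in IVM MII, lower in every cultured library (log2 fold change -1.40 ± 0.34 SE, adjusted p = 0.106 by edgeR). BCL2L10, an oocyte-rich BCL2 family gene, was at 4027 and 9700.1 CPM in IVO MII and 2529, 2277 and 6876 CPM in IVM MII. PTTG1 and PTTG2 are near-identical copies, and CKS1B, TMSB4X, H3F3B and UBB have copies too, so that reads may have been split among loci.

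The genes with the widest gaps within a group are given as a description of single libraries. Within IVO MII the widest gaps were those of ETNPPL, C1H1orf146, VPS72, SLC9C2 and SMIM13. ETNPPL was at 132 and 6.02 CPM in IVO MII and 162, 135 and 55.2 CPM in IVM MII. C1H1orf146 was at 1527 and 82.6 CPM in IVO MII and 944, 620.1 and 363 CPM in IVM MII. The chromatin gene VPS72 was at 110.0 and 6.80 CPM in IVO MII and 120.2, 147 and 212 CPM in IVM MII. In these 3 genes IVO MII replicate 2 was far below every other library. SMIM13, at 662 and 43.3 CPM in IVO MII and 1112, 791 and 519 CPM in IVM MII, showed the same. SLC9C2, at 109.5 and 6.76 CPM in IVO MII and 5.51, 6.35 and 5.25 CPM in IVM MII, was high in IVO MII replicate 1 alone. Within IVM MII the widest gaps were those of MRPL33, of the mitochondrial ribosome (3.61 and 0.947 CPM in IVO MII and 66.2, 154 and 4.53 CPM in IVM MII), TTC5, AIDA, the ribosomal protein paralogue RPL39L and ZP3, which is given above. TTC5 was at 201 and 471 CPM in IVO MII and 84.8, 36.1 and 679 CPM in IVM MII. AIDA was at 7.17 and 3.55 CPM in IVO MII and 98.02, 149 and 7.95 CPM in IVM MII. RPL39L was at 6.73 and 5.04 CPM in IVO MII and 72.5, 74.2 and 4.20 CPM in IVM MII. In MRPL33, TTC5, AIDA and RPL39L the replicates 1 and 2 of IVM MII lay away from IVO MII while replicate 3 lay near it, above the other two for TTC5 and below them for the rest.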

How the data were processed

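The submitters' processing notes name the read trimmer Trim Galore 0.6.7, the aligner Bowtie2 2.4.5, SAMtools 1.15.1, the read counter featureCounts 2.0.1 and DESeq2 among the authors' tools, without saying how each was set. The deposited values are raw read counts per gene and library. No build or strand setting is named in those notes, and Bowtie2 does not split reads across introns. Of the table, 10 broken lines (of MACF1, NEB and TTN) were left out, and 26 gene names had been turned into dates. Symbols were taken from the table, and 5013 of 11294 locus identifiers were matched to the RefSeq gene table of T2T-MFA8v1.1, which gave 721 of them a symbol.

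The 2 IVO MII and 3 IVM MII libraries were fitted without covariates with edgeR 4.0.16 in R 4.3.3 (TMM scaling, filterByExpr, glmQLFit in its legacy form, glmQLFTest, two-sided, Benjamini-Hochberg over 14668 genes, threshold 0.05). The tested genes held 99.919% to 99.959% of each library's counts. The scripts were tested on simulated data. The genes named were the 12 highest and 12 lowest called log2 fold changes with a symbol and a mean of at least 10 CPM in the higher group, where so many existed, the called members and the 3 most changed non-overlapping members of each list with a mean of at least 10 CPM over the 5 libraries, 16 oocyte genes, the 10 highest by TPM, the 5 widest within-group ranges in each group, and genes next to the threshold. The 26 lists held 971 entries, of which 945 matched (26 by an older symbol). The comparison, the lists and the rules were chosen with earlier results of these data known. Alternatives were other scalings, filters and tools (DESeq2 1.42.0, limma 3.58.1), a fit of all 7 libraries, replicate blocks and each library left out. Some members of the lists are not reported here.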

Additional observations from a re-analysis of the deposited data

How the results depend on the processing

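Depth was similar in the 5 libraries (23550299 to 29245733 counts), and 3 counts corresponded to 0.0985 to 0.14 CPM, below which a gene cannot be told from absent. Against 54 called genes (27 higher, 27 lower in IVM MII), the count was 849 with no filter on low counts (565 higher, 284 lower), 235 with the newer edgeR fit (123 higher, 112 lower), 1379 with DESeq2 (907 higher, 472 lower, with 288 adjusted p-values not given), 79 with limma voom (51 higher, 28 lower) and 241 with all 7 libraries (146 higher, 95 lower). With each library left out in turn it ran from 0 to 449 (0 to 317 higher, 0 to 132 lower). RLE scaling gave 58 and a minimum of 1 CPM in 2 libraries 65. Upper quartile scaling gave 54, with 49 shared, moved the share of higher calls from 50% to 40.7% (22 higher, 32 lower) and shifted the median of all genes to -0.16. Limma voom called 34 of the 54 and the fit of all 7 libraries called 52. Of 105 named genes that were not called 13 changed sign in these settings. Of the 54, 0 did, which their choice largely fixed. Their groups did not overlap, and the smallest change among them was 2.37 on the log2 scale. Genes detected fell to means of 8315.5 (IVO MII) and 8120 (IVM MII) at 5 CPM and were 13709.5 and 13633 at 10 counts. The cause of these differences was not tested.

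Whether the replicate numbers pair the libraries cannot be decided here. With 2 IVO MII libraries the deviations of one are the mirror image of the other's, and so are the correlations. The titles number the IVO MII libraries 1 and 2, while the name of the second carries a 3. Deviations from the group means correlated at 0.37 for the libraries numbered 1 and at -0.19 for those numbered 2 in the titles, and at 0.42 between IVO MII replicate 2 and IVM MII replicate 3. With a replicate block by title number edgeR called 868 genes (584 higher, 284 lower), and with a replicate block by library name 536 (378 higher, 158 lower), and both held all 54.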
